A study of Arabidopsis thaliana with 3 samples.

Results

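The AP2/ERF and RAV transcription factors described here are 30 genes of Arabidopsis thaliana, namely ERF, RAP2 and RAV/TEM genes together with DEWAX (AT5G61590), taken by locus identifier from a table of single mRNA tails. The rule names genes and uses no tail value, but it was written with results of these data known. Of the 30 genes, 20 had at least 1 read and 6 had the minimum of 20 reads used for tests, out of 16577 loci with reads and 3439 with at least 20. The data came from TAIL-seq of wild-type Col-0 flowers (flower buds in the study's methods), with 3 biological replicates of this single genotype, untreated and grown on soil. In TAIL-seq, the free 3′ ends of ribodepleted RNA receive an adapter before sequencing in pairs, so that read 1 names the gene and read 2 gives the As of its tail and any nucleotides added after them. Because there was 1 group, mRNAs were compared with each other within libraries, and no comparison between genotypes or conditions was possible.

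AP2/ERF proteins bind DNA through the AP2 domain. Many were found as factors that bind ethylene-responsive promoters, and the family holds activators as well as repressors with an EAR motif, while RAV proteins carry a B3 domain beside the AP2 domain. Many of these genes respond quickly to hormones, wounding, pathogens or low oxygen. In the cytosol an mRNA loses its poly(A) tail stepwise, and in Arabidopsis the terminal uridylyltransferase URT1 adds uridines (U) to shortened tails, which is called uridylation.

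Examples of uridylated tails are shown as they were read, 5′ to 3′, with As in lower case and added Us in capitals. For each of the 6 mRNAs with at least 20 reads, the uridylated tail with the most added Us is given. For DEWAX, the most frequent uridylated tail (4 reads) and the one with the fewest As (marked shortest) are also given. These are picked tails, and a single U was found on 79 of the 118 uridylated member reads.
DEWAX, most frequent: aaaaaaaaaaaaaaaaU
DEWAX, most Us: aaaaaaaaaaaaUUUU
DEWAX, shortest: aaaaaaaaaaaUU
ERF1A, most Us: aaaaaaaaUUU
ERF4, most Us: aaaaaaaaaaUUU
ERF7, most Us: aaaaaaaaaaaaaaaUUU
RAP2.2, most Us: aaaaaaaaaaaaaaUU
RAP2.12, most Us: aaaaaaaaaaaaaaaaaaaaaaaaaaaaaU
Where 2 reads tied, as in ERF7, RAP2.2 and RAP2.12, the tail with more As is shown, and the other had 14, 7 and 16 As. In the tails shown the Us followed 8 As in ERF1A, 10 in ERF4, 12 in the DEWAX tail with 4 Us and 29 in RAP2.12. The longest uridylated tails of DEWAX and ERF4 had 42 and 47 As before a single U.

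Replicates 1, 2 and 3 held 222681, 113458 and 106777 reads with a measured tail, of which 193, 148 and 121 belonged to the 30 genes. In replicate 1, 5 of them were given to both RAP2.4 and WIND2 and count for each gene below, which makes 198 there and 467 in all. By the names of the reads, replicate 1 came from a different sequencing run than replicates 2 and 3, so replicate and run cannot be told apart for replicate 1. Of the 7 flower markers, all had reads and 4 could be tested, and none was above or below the transcriptome in uridylation (0 of 4 also at an unadjusted p under 0.05). The 3 anther tapetum markers had 1250 reads, the 2 root hair markers 1 read and the 2 seed storage markers none. DEWAX was among 22 mRNAs that the study also followed by 3′RACE-seq, which amplifies the 3′ ends of chosen mRNAs, and these 22 took 1.58% of reads in replicate 1 but 29.2% and 23.2% in replicates 2 and 3.

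Reads were concentrated on a few members. DEWAX, a repressor of cuticular wax synthesis genes, gave 155 of 467 reads (33.2%), and the 6 members with at least 20 reads gave 385 (82.4%). ERF4 (AT3G15210) had 77 reads, RAP2.2 (AT3G14230) had 74, ERF7 (AT3G20310) had 34, RAP2.12 (AT1G53910) had 23 and ERF1A (AT4G17500) had 22. Another 14 members had between 1 and 18 reads. No read was found for ERF5 (AT5G47230), ERF1B (AT3G23240), ERF9 (AT5G44210), ERF12 (AT1G28360), HRE1 (AT1G72360), WIND3 (AT1G36060), RAP2.6 (AT1G43160), RAP2.9 (AT4G06746), TEM2 (AT1G68840) and EDF3 (AT3G25730), and 0 of 442916 reads allows up to 6.77 RPM, reads per 1000000 reads of the library. The plot of reads by member shows that the libraries did not share the same order.

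**Figure D1:**
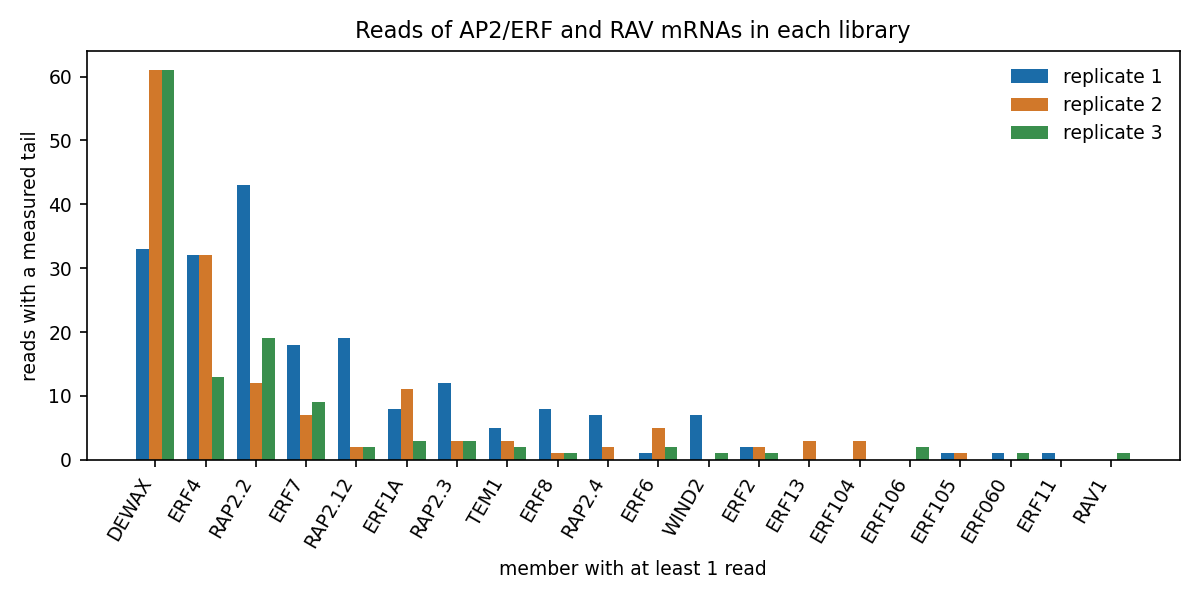
Reads with a measured tail (y axis) for each of the 20 members with at least 1 read (x axis), with a bar for each replicate. DEWAX had 33, 61 and 61 reads in replicates 1, 2 and 3, whereas RAP2.2 had 43, 12 and 19.

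DEWAX was at 148, 538 and 571 RPM in replicates 1, 2 and 3. The mean of replicates 2 and 3 was 3.74 times that of replicate 1, where the median mRNA had a ratio of 0.668. With the reads of the 22 3′RACE-seq mRNAs taken out of the library totals, the DEWAX ratio was 4.99 and the median 0.892. RAP2.12 went the other way, with 85.3, 17.6 and 18.7 RPM, and its ratio was 0.284 with the 3′RACE-seq reads taken out. RAP2.2, with 193, 106 and 178 RPM, was highest in replicate 1 only with these reads in the totals. With them taken out it had 196, 149 and 232, highest in replicate 3, and a ratio of 0.971. For ERF4 (144, 282 and 122), ERF7 (80.8, 61.7 and 84.3) and ERF1A (35.9, 97.0 and 28.1 RPM), replicate 1 lay between both others. This order also depended on the totals. With the 3′RACE-seq reads taken out of them, replicate 1 was lowest for all of these. The values were then 146, 398 and 158 for ERF4, 82.1, 87.1 and 110 for ERF7, and 36.5, 137 and 36.6 for ERF1A. In these bulk samples, fewer cells of a type and less RNA per cell cannot be told apart. The study's oligonucleotides for 3′RACE-seq of DEWAX are given because they mark the part of the mRNA that the other assay amplified.
DEWAX fw1: ccacagcctcaaggaacaacaa
DEWAX fw2: gtgaagcatcatgtatagagcc
In the RefSeq genome TAIR10.1, fw1 matched chr5:24764682-24764703 on the minus strand, within the coding sequence, and fw2 matched chr5:24764580-24764601, within the 3′ UTR. Each had 1 match in the genome. Whether reads of the other assay entered replicates 2 and 3 was not tested.

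The question put to the data was how often the mRNAs of these factors are uridylated and how long their tails are, beside the transcriptome. Uridylated reads made up 20.2%, 32.4% and 24.8% of member reads in replicates 1, 2 and 3. The Wilson 95% intervals ran from 15.2 to 26.3%, from 25.4 to 40.3% and from 18.0 to 33.2%. All reads of the same libraries gave 7.41%, 9.96% and 11.6%. The members were higher in each library, with 25.8% ± 6.18 against 9.66% ± 2.1 and a difference of 16.1 percentage points ± 5.48 (SD, n = 3 for each). Intervals cover counting error only. Given how the members were chosen, the pooled value is a description without a test.

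DEWAX did not carry the pooled value alone. Without it, 17.6%, 32.2% and 23.3% of reads were uridylated in replicates 1, 2 and 3, or 71 of 312 reads (22.8%). The 14 members with fewer than 20 reads had 18 uridylated reads of 82 (22.0%, Wilson interval 14.4 to 32.1%). In these 82, the 5 reads shared by RAP2.4 and WIND2, none of them uridylated, count for each gene. Of these 14 members, 10 had a uridylated read and 4 had none. Added G or C was found on 2 of the 467 member reads, in ERF7 and RAP2.3, or 0.428%, against 0.752% of all reads.

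For each mRNA with at least 20 pooled reads, uridylated against other reads were set against those of all remaining mRNAs in a two-sided Cochran-Mantel-Haenszel test stratified by library, and p-values were adjusted by Benjamini-Hochberg over all 3439 mRNAs. An exact conditional test over the same strata is given beside it. Of the 6 members tested, 5 were above the transcriptome, namely DEWAX, ERF1A, ERF4, ERF7 and RAP2.2, where 9.51% of all mRNAs tested were above it. None of the 6 was below it (0 also at an unadjusted p under 0.05 and with the beta-binomial and exact tests), where 5.76% of all mRNAs were. The median of the 6 percentages was 26.8%, and that of all 3439 mRNAs was 8.00%, with quartiles of 4.20% and 14.3%. The test takes reads as independent and leaves out extra spread between libraries, which ranged over more than 20 percentage points for ERF1A, ERF4, ERF7 and RAP2.2. The beta-binomial test allows for such spread by an overdispersion shared by all mRNAs. This was 0.002, the smallest value tried, so it allowed little extra spread for any single mRNA.

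**Figure D2:**
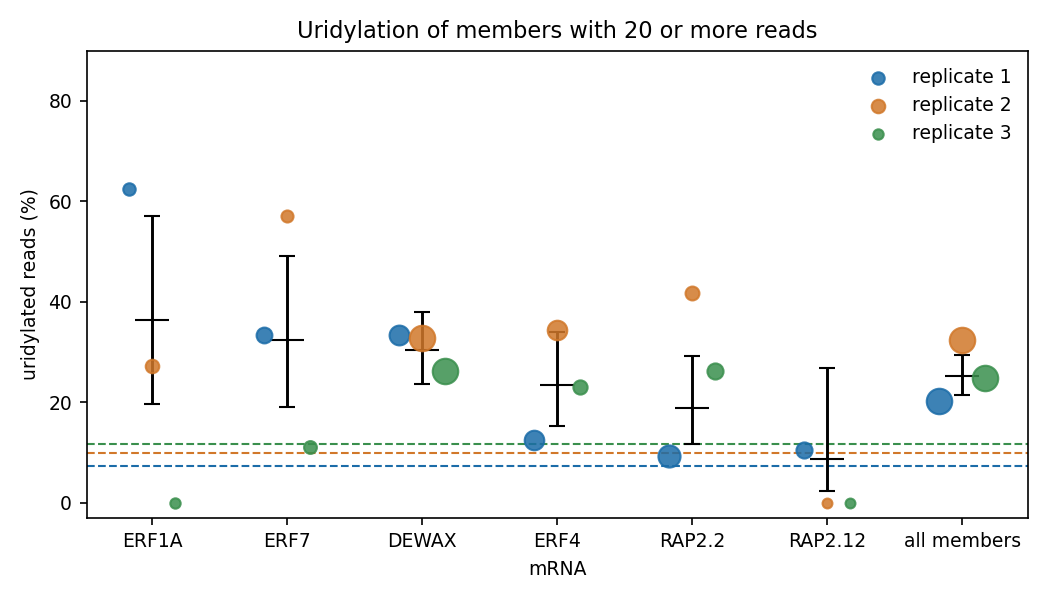
Percentage of uridylated reads (y axis) for the 6 members with at least 20 reads and for all members together (x axis). Circles are single libraries, larger with more reads up to 60, black bars are pooled percentages with Wilson 95% intervals, and dashed lines are all reads of each library in its color. DEWAX stayed between 26.2% and 33.3%, whereas ERF1A ranged from 0 to 62.5%.

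DEWAX had the narrowest range among the 5. Uridylated reads were 11 of 33 in replicate 1, 20 of 61 in replicate 2 and 16 of 61 in replicate 3, or 33.3%, 32.8% and 26.2%. Every one of these values was above that of all reads in the same library. The pooled percentage of 30.3% (Wilson interval 23.6 to 38.0%) ranked 142 of 3439. The odds ratio against all other mRNAs was 3.87 (95% interval 2.75 to 5.45, adjusted p = 2.02e-14, and 1.89e-10 in the exact conditional test). The call held under every alternative run, with odds ratios from 2.81 to 4.94. No alternative left out both replicates 2 and 3, so whether reads of the 3′RACE-seq assay entered into this call was not tested.

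Among the other members of subfamily IX, which are mostly activators that bind the GCC box of defense genes, ERF1A could be tested. It had 5 of 8, 3 of 11 and 0 of 3 reads uridylated in replicates 1, 2 and 3, or 62.5%, 27.3% and 0%. The first of these libraries was far above its total and the last gave no uridylated read among very few. The pooled value was 36.4% of 22 reads (Wilson interval 19.7 to 57.0%), with an odds ratio of 5.36 (2.28 to 12.6, adjusted p = 7.88e-04, exact test 0.00539). Leaving out any replicate took ERF1A below 20 reads, with 21.4% of 14 reads without replicate 1, 45.5% of 11 without replicate 2 and 42.1% of 19 without replicate 3. With strata of library and poly(A) length class in place of library, the odds ratio was 2.15 (adjusted p of 0.419).

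The remaining members of subfamily IX had few reads. ERF6 (AT4G17490) had 2 uridylated reads of 8, ERF2 (AT5G47220) had 1 of 5, ERF104 (AT5G61600), a target of a mitogen-activated protein kinase in flagellin signaling, had 2 of 3, and ERF106 (AT5G07580) had 1 of 2. ERF13 (AT2G44840, 3 reads) and ERF105 (AT5G51190, 2 reads) had none. Without DEWAX, the subfamily had 14 of 45 reads uridylated (31.1%, Wilson interval 19.5 to 45.7%), beside 30.3% for DEWAX itself. ERF1B, a direct target of EIN3 in ethylene signaling, and ERF5 had no read.

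Subfamily VIII holds repressors with an EAR motif, of which ERF4 and ERF7 could be tested. For ERF4, 4 of 32, 11 of 32 and 3 of 13 reads were uridylated in replicates 1, 2 and 3, or 12.5%, 34.4% and 23.1%. All 3 values were above their libraries, with replicate 2 highest. The pooled value was 23.4% of 77 reads (Wilson interval 15.3 to 34.0%), with an odds ratio of 3.05 (1.79 to 5.19, adjusted p = 5.44e-04, exact test 0.00216). Without replicate 2 the percentage was 15.6%, the odds ratio 1.96 and the adjusted p 0.494. With at least 2 Us required, the odds ratio was 3.01 and the adjusted p 0.0970.

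For ERF7, 6 of 18, 4 of 7 and 1 of 9 reads were uridylated in replicates 1, 2 and 3, or 33.3%, 57.1% and 11.1%. Replicates 1 and 2 were well above their libraries, and replicate 3 was just below its total of 11.6%. The pooled value was 32.4% of 34 reads (Wilson interval 19.1 to 49.2%), with an odds ratio of 4.74 (2.32 to 9.71, adjusted p = 1.61e-04, exact test 0.00177). Without replicate 1 only 16 reads were left, 31.3% of them uridylated, and no test was made. Without replicate 3 the odds ratio was 7.71 and the percentage 40%. With at least 2 Us required, the odds ratio was 4.10 and the adjusted p 0.147. ERF8 (AT1G53170) had 1 uridylated read of 10, and ERF11 (AT1G28370) had a single read, not uridylated.

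Subfamily VII holds factors that are degraded in the presence of oxygen and act in the response to low oxygen. For RAP2.2, 4 of 43, 5 of 12 and 5 of 19 reads were uridylated in replicates 1, 2 and 3, or 9.30%, 41.7% and 26.3%. Replicate 1, with the most reads, was close to its library, and both other replicates were far above theirs. The pooled value was 18.9% of 74 reads (Wilson interval 11.6 to 29.3%), with an odds ratio of 2.42 (1.35 to 4.36, adjusted p = 0.0346, exact test 0.0417). Of the 5 calls, this was lost under the most alternatives. The odds ratio was 1.80 without replicate 2 (adjusted p of 0.488) and 2.29 without replicate 3 (0.200), and it was 3.84 without replicate 1 (0.00645), where 32.3% of 31 reads were uridylated. It was 2.31 without the 3′RACE-seq mRNAs (0.0539), 2.46 with the beta-binomial test (0.0507) and 1.85 with strata of library and length class (0.337). With at least 2 Us required the direction turned, with an odds ratio of 0.869 (adjusted p of 1).

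RAP2.12, a close relative of RAP2.2, had 2 uridylated reads of 19 in replicate 1 and none of 2 in either other replicate. The pooled value was 8.70% of 23 reads (Wilson interval 2.42 to 26.8%), near that of all reads, and the odds ratio of 1.10 had an interval from 0.258 to 4.65 (adjusted p = 1, exact test 0.907). The 95% intervals of the odds ratios of RAP2.12 and RAP2.2 overlapped, and the difference between these mRNAs was not tested. RAP2.3 (AT3G16770) had 4 uridylated reads of 18, all 4 in replicate 1, which gave 12 of its reads. HRE1 had no read.

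The remaining subfamilies had 30 reads together with little depth per gene. In subfamily I, RAP2.4 (AT1G78080) had 1 uridylated read of 9, WIND2 (AT1G22190) had 1 of 8 and ERF060 (AT4G39780) had 2 of 2. RAP2.4 and WIND2, related genes that act in dedifferentiation after wounding, shared 5 reads, and their mRNAs have an identical coding stretch of 46 nucleotides, so their values are not independent. Among the RAV genes, TEM1 (AT1G25560), a repressor of flowering, had 3 uridylated reads of 10 and RAV1 (AT1G13260) had a single read, not uridylated. The genes of subfamilies X and II, RAP2.6 and RAP2.9, had no read.

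Member reads with no nucleotide after the poly(A) stretch had a median of 28, 24.5 and 23 As in replicates 1, 2 and 3, against 26, 22 and 22 As for all reads, and 25 against 24 As for pooled reads. The 22 3′RACE-seq mRNAs, with 29.2% and 23.2% of all reads in replicates 2 and 3, are part of this comparison. Uridylated tails were shorter, with a median of 16, 18 and 15 As in the members and 15 As in each library for all reads. With all tails counted, 46.5%, 33.1% and 33.1% of member reads in replicates 1, 2 and 3 had over 25 As. For all reads these shares were 48.9%, 34.5% and 33.8%, so the members were not longer by this measure. The poly(A) stretch was recorded from 6 As on, and tails that fill the read at 91 nucleotides are lower bounds, as was the case for 3 member reads, all in replicate 1.

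A two-sided van Elteren test, a rank-sum test with library as stratum, compared the unmodified tails of each mRNA with those of all others, for mRNAs with at least 20 such tails. Of the 5 members tested, only ERF4 had longer tails, where 8.54% of the 3033 mRNAs tested had longer tails. None of the 5 had shorter tails (0 also at an unadjusted p under 0.05), where 6.23% of all mRNAs did. The median As of ERF4 were 39, 30 and 36 in replicates 1, 2 and 3, above the library in each, with a pooled median of 34 and quartiles of 24.5 and 42.5 As over 59 tails. A read of another mRNA was shorter than an ERF4 tail in 68.6% of comparisons within libraries (adjusted p = 1.63e-05, n = 59 tails). The call held under all 9 alternatives, with adjusted p-values of the van Elteren test from 9.56e-06 to 0.00309.

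The other members tested had tails near those of their libraries. Median As in replicates 1, 2 and 3 were 29, 23 and 24 for DEWAX, 29, 32 and 24.5 for ERF7, 24, 23 and 18.5 for RAP2.2 and 24, 20.5 and 20 for RAP2.12. The adjusted p-values of the van Elteren test were 0.711, 0.400, 0.274 and 0.888, over 108, 22, 60 and 21 tails. ERF1A had 14 unmodified tails, too few for this test, with medians of 13, 15.5 and 10 As and a pooled median of 14.5. Its tails were the shortest of the 6 members in each library. With a minimum of 10 tails it had shorter tails than other mRNAs (adjusted p = 0.0239 in the van Elteren test, n = 14 tails), and so it did with all tails counted and added nucleotides included (adjusted p = 2.92e-04, n = 22 tails).

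**Figure D3:**
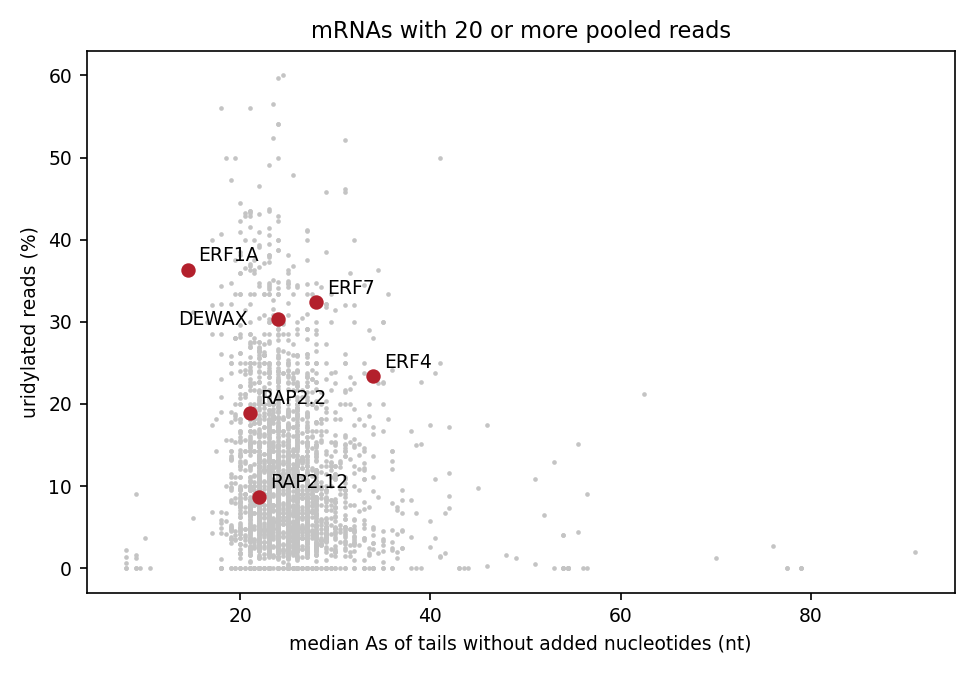
Percentage of uridylated reads (y axis) against the median As of tails without added nucleotides (x axis, nt) for mRNAs with at least 20 pooled reads. Each gray point is an mRNA and red points are the 6 members, which range from ERF1A with 36.4% at 14.5 As to ERF4 with 23.4% at 34 As.

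Uridylation of the members was also read within classes of tail length. Among tails of 10 to 25 As, 34.0%, 38.5% and 32.9% of member reads were uridylated in replicates 1, 2 and 3, against 12.3%, 13.7% and 16.0% of all reads. The member percentages were similar in the 3 libraries, closer together than for all tails. Pooled, this class held 96 of 272 reads (35.3%, Wilson interval 29.9 to 41.1%). Among tails over 25 As, 4 of 92, 9 of 49 and 3 of 40 member reads were uridylated, or 4.35%, 18.4% and 7.50%, against 1.61%, 1.97% and 1.92% of all reads. Tails under 10 As were rare, with 3.00% of member reads and 2.56% of all reads. Among them, 6 of 14 member reads were uridylated (42.9%, Wilson interval 21.4 to 67.4%). The 27.7% of all reads in this class lay within that interval.

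**Figure D4:**
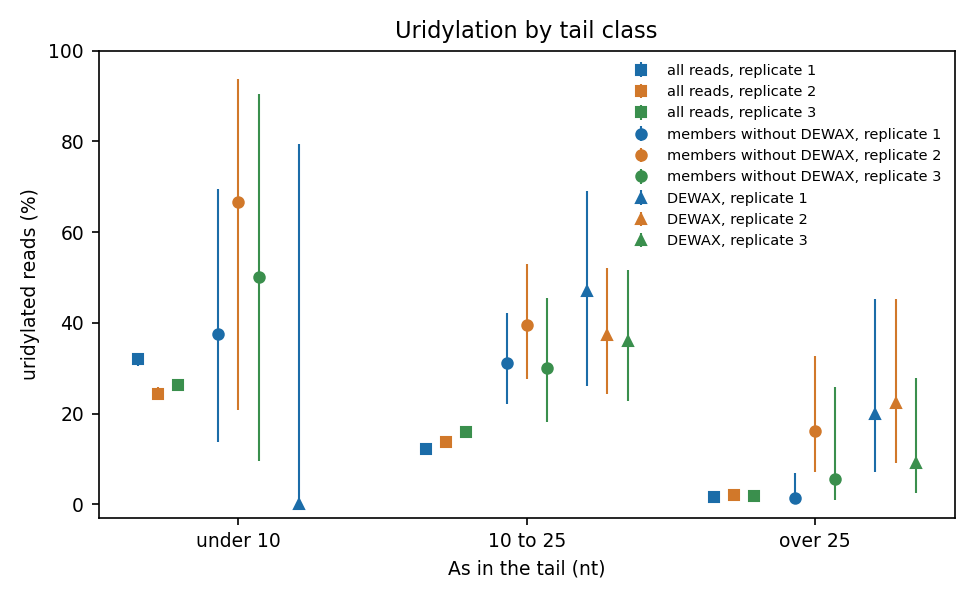
Percentage of uridylated reads (y axis) by number of As in the tail (x axis, 3 classes in nt), with Wilson 95% intervals. Squares are all reads, circles are members without DEWAX and triangles are DEWAX, in the color of the replicate. In tails of 10 to 25 As, DEWAX and the other members lay between 30% and 47.1%, above the 12.3% to 16.0% of all reads.

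Single members differed in where their uridylated tails lay. DEWAX had 38 uridylated reads of 99 at 10 to 25 As (38.4%), with 47.1%, 37.2% and 35.9% in replicates 1, 2 and 3. Over 25 As it had 3 of 15, 4 of 18 and 2 of 22, together 9 of 55 (16.4%, Wilson interval 8.86 to 28.3%), where all reads gave 1.75%. DEWAX thus held 9 of the 16 uridylated member reads over 25 As, and the other members had 7 of 126 (5.56%). Of these 7, 5 were in replicate 2. Its uridylated tails had a median of 18 As and ranged from 11 to 42.

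ERF4 combined long unmodified tails with uridylation of its shorter tails. Of its 31 reads at 10 to 25 As, 15 were uridylated (48.4%), and of its 44 reads over 25 As, 3 were. ERF7 had 10 of 19 uridylated at 10 to 25 As (52.6%) and 1 of 15 over 25 As, and RAP2.2 had 12 of 51 (23.5%) and 1 of 22. ERF1A differed, since 4 of its 8 uridylated reads had fewer than 10 As and only 5 of its 22 reads were that short. When the test was stratified by library and length class, DEWAX, ERF4 and ERF7 were above the transcriptome and ERF1A and RAP2.2 were not, and the odds ratio of ERF4 was 4.85. With only tails of 10 to 25 As counted, an alternative chosen after the data were seen, DEWAX and ERF4 were above it (odds ratios 3.71 and 5.93), RAP2.2 was not (adjusted p of 0.232), and ERF7 and ERF1A had too few such reads.

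**Figure D5:**
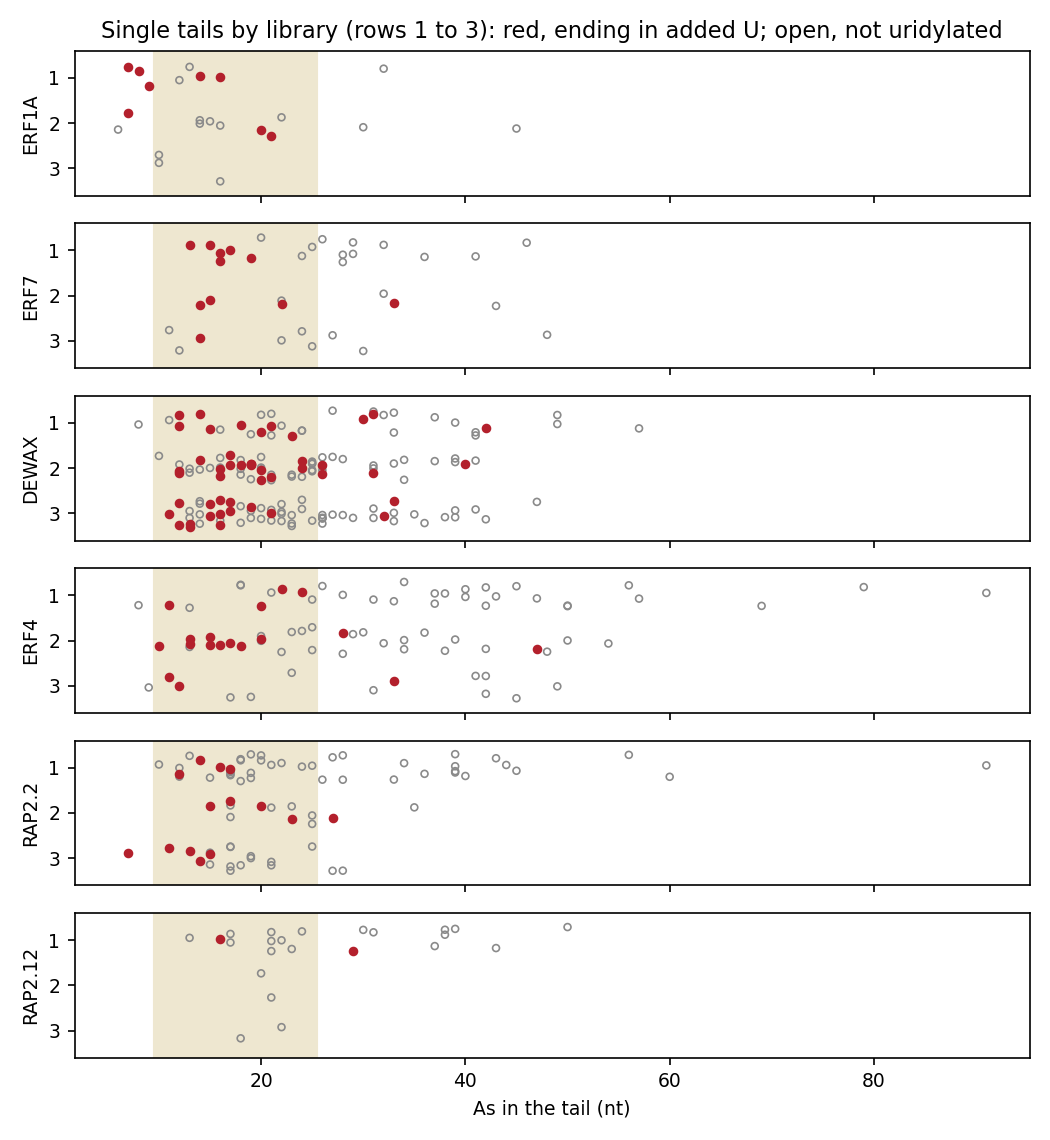
Number of As (x axis, nt) of every read of the 6 members with at least 20 reads, in a panel each, with replicates 1 to 3 as rows and points spread within a row for visibility. Red points end in added U, open points do not, and the shaded band covers 10 to 25 As, in which 15 of 31 ERF4 reads and 38 of 99 DEWAX reads were red.

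Most added stretches were a single U, and their lengths were not tested against those of other mRNAs. A single U was found on 79 of the 118 uridylated member reads (66.9%), 2 Us on 31 (26.3%) and 3 or more on 8 (6.78%), with a longest run of 4. All uridylated reads gave 64.9%, 27% and 8.11%, with a longest run of 27. By library, a single U was found on 65%, 72.9% and 60% of uridylated member reads and on 68.3%, 63.2% and 62.0% of all uridylated reads. DEWAX had 32 reads with 1 U, 12 with 2 Us and 3 with 3 or more. RAP2.2 had 12 with 1 U and 2 with 2 Us, and both uridylated reads of RAP2.12 had 1 U.

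Other genes of the pathways these factors belong to were counted from lists, and genes past a threshold are named. Of 23 genes of ethylene synthesis and signaling, 17 had reads and 4 could be tested, of which 3 were above the transcriptome in uridylation (9.51% of all mRNAs tested) and none below (5.76%), with 3 of the 4 past an unadjusted p of 0.05 in either direction. EBF2, an F-box protein that targets EIN3 for degradation, had 39.5% of 38 reads (adjusted p = 8.91e-08, exact test 2.59e-05). Its relative EBF1 had 31.6% of 38 reads (adjusted p = 3.69e-05, exact test 7.89e-04). EIL1, a relative of EIN3, had 25.8% of 31 reads (adjusted p = 0.0164, exact test 0.0279). EIN3, the main transcription factor of ethylene signaling, had 12.7% of 71 reads (adjusted p = 0.717, exact test 0.563). None of the 4 had longer or shorter tails than other mRNAs, as 8.54% and 6.23% of all mRNAs did (0 also at an unadjusted p under 0.05).

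Of 33 further AP2/ERF and RAV genes, 13 had reads and 2 could be tested. AINTEGUMENTA (ANT), which promotes growth of floral organs, had 33.3% of 33 reads uridylated and was above the transcriptome (adjusted p = 5.91e-05, exact test 0.00106), and SHN3 had 7.14% of 28 reads and was not. Of 10 genes of cuticular wax synthesis, the process repressed by DEWAX, 7 could be tested and 2 were above the transcriptome, beside 9.51% of all mRNAs tested. KCS6, an elongase subunit, had 15.1% of 371 reads uridylated (adjusted p = 7.28e-05, exact test 3.20e-04), and CER3 had 21.7% of 60 reads (adjusted p = 0.00592, exact test 0.0118). In the van Elteren test, tails were longer for CER1 and shorter for KCS6, with adjusted p-values of 0.0197 and 0.0374, beside 8.54% and 6.23% of all mRNAs tested. Of the tapetum markers, GRP17 and LTP12 were below the transcriptome in uridylation (5.76% of all mRNAs) and GRP17 also had shorter tails.

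According to RefSeq (TAIR10.1, joined by locus identifier), 25 of the 30 genes have a single exon (83.3%), as do 4 of the 6 with at least 20 reads, against 13.9% of mRNAs with at least 20 reads. DEWAX lies on chromosome 5 from 24764256 to 24765511 on the minus strand, as 1 exon with a 3′ UTR of 397 nucleotides. Its relative ERF104 lies 832 nucleotides away with no gene between them. ERF6 and ERF1A (gap of 5041 nucleotides) and ERF11 and ERF12 (2668 nucleotides) are also neighbors. The median annotated 3′ UTR was 409.5 nucleotides for the 6 members, 313 for all 30 and 296 for mRNAs with at least 20 reads. ERF106, ERF105 and HRE1 overlap an antisense gene, and they had 2, 2 and 0 reads.

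In the last 200 nucleotides of the annotated mRNAs, on the sense strand, the motif TGTANATA (the core bound by Pumilio proteins) was present in 0 of the 6 members, 4 of the 30 and 4.23% of mRNAs with at least 20 reads. The polyadenylation motif AATAAA was present in 3 of the 6, 5 of the 30 and 23.1%. Among the 6, ERF1A, RAP2.2 and RAP2.12 held AATAAA, while DEWAX, ERF4 and ERF7 held neither motif in this window.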

How the data were processed

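TAIL-seq libraries of 3 biological replicates were used. As described in the study's methods, reads were collapsed by random tag, aligned to TAIR10 (the submitters' processing notes name HISAT2 2.1.0 and bedtools 2.17.5) and assigned to genes, and tails were taken from read 2. The deposited table lists poly(A) length, length of the added stretch, both together, and the kind of nucleotide added as called by the authors, for each read and gene. The lengths are in nucleotides and were not normalized. An added U appears as A there, since read 2 runs opposite to the RNA.

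Of 455742 rows, 172 repeats of a read and gene were dropped. A read given to several genes counted for each gene and once in values over all reads. Percentages carry Wilson 95% intervals, which cover counting error only, and the limit for a count of 0 is 3 counts. Members and gene lists were chosen with earlier results of these data known. Every member with at least 20 pooled reads is described with both tests, other members by their counts, and from the lists each gene past a threshold of 0.05 is named (EIN3 and SHN3 were added after their values were seen). Odds ratios are Mantel-Haenszel estimates. Scripts used Python 3.11.15, numpy 2.4.6, pandas 2.3.3 and scipy 1.17.1 and were tested on simulated data. Alternatives were leaving out each replicate, at least 2 added Us, minima of 10 and 50 reads, removal of shared reads, of tails that fill the read or of the other 3′RACE-seq mRNAs, a beta-binomial and an exact conditional test, and strata by length class (under 10, 10 to 13, 14 to 17, 18 to 25 and over 25 As). Sequences and positions are from RefSeq TAIR10.1, tails from the deposited table and primers from the study's oligonucleotide table.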

Additional observations from a re-analysis of the deposited data

How the results depend on the processing

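Depth limited the members tested. In the main test, 5 of 6 members tested were above the transcriptome. Without replicates 1, 2 and 3 in turn, these were 3 of 3, 2 of 5 and 3 of 5 tested. With at least 2 added Us they were 2 of 6, and with strata of library and length class 3 of 6. A minimum of 50 reads gave 3 of 3, and only tails of 10 to 25 As (chosen after the data were seen) gave 2 of 3. Without replicate 1, 3 members could be tested, and DEWAX, ERF4 and RAP2.2 were above. The count of members with shorter tails went from 0 to 1 with all tails counted and with a minimum of 10 tails, by ERF1A in both. Over all mRNAs, 327 of 3439 tested were above. Without replicates 1, 2 and 3 in turn, these were 102 of 1523, 195 of 2835 and 207 of 2807. They were 193 of 3439 with at least 2 Us, and 590 of 6046 and 123 of 1474 with minima of 10 and 50 reads. With only tails of 10 to 25 As, 168 of 2043 were above. Out of the same numbers tested, the 198 below were 73 to 145 with a replicate left out and 97 with at least 2 Us. The 259 of 3033 with longer tails were 114 of 1299, 207 of 2529 and 215 of 2531 without replicates 1, 2 and 3 in turn. The 189 with shorter tails were 61, 167 and 180 of the same numbers tested. The pooled uridylation of 25.3% was 8.35% with at least 2 Us. Of all 442916 reads, 10842 had 2 Us and 3260 had 3 or more. Without ERF4 (chosen after read counts were seen) the pooled uridylation was 25.6%. The pooled median of 25 As was 22 with all tails counted. Directions changed for RAP2.2 and RAP2.12 with at least 2 Us (odds ratios 0.869 and 0) and for the tail length of DEWAX without replicate 3 (49.9% of reads shorter than its own, against 52.0%, with 49.9 to 54.2% over the replicates left out), none of them past the threshold. The cause was not tested. No paired analysis was possible because there was 1 group.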
